A study of Mus musculus with 6 samples.

Results

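Described here are GABAergic nuclei with Lef1, Npsr1 and related genes from the hypothalamus, the brain region that controls feeding, body temperature and hormone release. They were those with at least 1 UMI (a counted RNA molecule) of at least 3 of the 5 genes Lef1, Cracr2a, Rarb, Npsr1 and Galr1, and at least 1 UMI over Gad1, Gad2 and Slc32a1 together. The rule was met by 305 of 34542 nuclei, or 2.50% of the 12204 nuclei with a UMI of Gad1, Gad2 or Slc32a1, which are called GABAergic nuclei below. By pool, 127 came from chow mice, 114 from DIO mice and 64 from OB mice. The remaining 11899 GABAergic nuclei served for comparison.

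The study measured RNA and hashtags in NeuN-sorted hypothalamic nuclei with a 3′ droplet kit, in 3 pools. DIO mice were obese from their diet, OB mice were ob/ob mice on chow, which lack functional leptin, and chow mice were the lean comparison. In each pool, some mice had received rapamycin, an inhibitor of the kinase complex mTORC1, and the others vehicle. Each pool and treatment is 1 sample with its own hashtag, the number of mice behind a hashtag was not given in the sources used here, and no sample has a replicate within its pool.

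Lef1 encodes a transcription factor that acts with β-catenin at the end of the Wnt pathway, and Rarb a nuclear receptor for retinoic acid. Npsr1 is the receptor of neuropeptide S, a peptide of the brainstem that promotes wakefulness in rodents, and Galr1 is a receptor of the peptide galanin that couples to inhibitory G proteins. Cracr2a encodes a protein that regulates calcium entry through store-operated channels. Gad1 and Gad2 make GABA, the main inhibitory transmitter, and Slc32a1 loads it into vesicles.

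Treatment was read from the oligonucleotide on an antibody against the nuclear pore, and these 2 sequences carry every comparison of rapamycin with vehicle.
Hashtag 1, rapamycin: TTCCTGCCATTACTA
Hashtag 2, vehicle: CCGTACCTCATTGTT
By these tags, 50 selected nuclei were rapamycin and 60 vehicle in the chow pool, 50 and 49 in the DIO pool, and 33 and 10 in the OB pool. Carrying both tags were 37 of the 305 nuclei (12.1%), against 6.52% of all GABAergic nuclei, and 16 had no call, 13 of them from OB. Those 53 nuclei are in the counts of nuclei and clusters but not in sums by treatment.

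The selected nuclei were deeper than the others, with a median of 7134 UMIs against 5317 in other GABAergic nuclei. A rule that asks for 3 detected genes favours deep nuclei, and levels below are therefore in CPM, the UMIs of a gene scaled to the same total in every sum. The 6 sums by treatment ranged between 48486 UMIs (OB, vehicle) and 515667 UMIs (chow, vehicle). Between 31 and 38 barcodes were shared by any 2 pools, and 3 selected nuclei had such a barcode.

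The nuclei were chosen by the detected UMIs of these genes, so the levels of the 5 are a description and were not tested. Exactly 3 of the 5 genes were seen in 249 nuclei, 4 in 55 and all 5 in 1. Just outside the rule, 866 GABAergic nuclei had 2 of the 5. Lef1 had a UMI in 82.3% of the selected nuclei, Rarb in 72.8%, Npsr1 in 69.2%, Cracr2a in 64.6% and Galr1 in 29.8%. Lef1 and Npsr1 were seen together in 161 nuclei (52.8%), so the label names the leading genes and not every nucleus. Neither gene was restricted to the selected nuclei, since Npsr1 had a UMI in 1282 other GABAergic nuclei (10.8%) and Lef1 in 880 (7.4%). In nuclei with oligodendrocyte markers and no GABAergic UMI, which should lack these genes, Lef1 was seen in 1.05% and Npsr1 in 1.26%, at a median depth of 1794 UMIs.

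Npsr1 was the most abundant of the 5. Its level over the 6 samples was 455 to 907 CPM in the selected nuclei (median 551) and 48.2 to 83.6 in other GABAergic nuclei (median 55.6). Lef1 (GRCm38 chr3:131110297-131224357) spanned 188 to 536 CPM in the selected nuclei, against 21.4 to 43.2 in the others. Rarb (chr14:16430839-17082331) spanned 127 to 421 in the selected nuclei and 23.1 to 47.4 in the others, Cracr2a (chr6:127561062-127674234) 101 to 261 and 10.5 to 18.3, and Galr1 13.4 to 82.5 and 5.59 to 9.29. None of the 5 ranges overlapped between the sets, as the rule dictates. Levels of the synthesis genes lay close together, with Gad1 at 132 to 330 CPM in the selected nuclei against 110 to 174, and Gad2 at 163 to 206 against 217 to 276. Slc17a6, the vesicular glutamate transporter of most glutamatergic hypothalamic neurons, had a UMI in 12.5% of the selected nuclei and 11.8% of the others, and Slc17a7 in 1 of the 305.

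**Figure D1:**
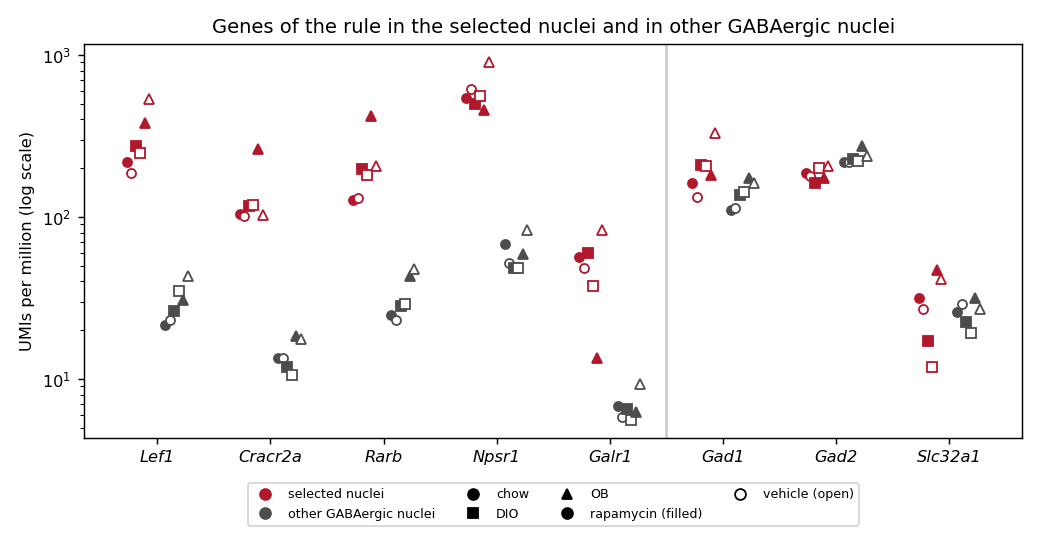
Levels of the 8 genes of the rule, in CPM on a log axis, with 1 point per pool and treatment. Points of the selected nuclei (red) lie above those of other GABAergic nuclei (grey) for Lef1, Cracr2a, Rarb, Npsr1 and Galr1, which the rule fixes, while Gad1 and Slc32a1 overlap.

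Rarb is itself a target of retinoic acid. Shown is the start of a RefSeq transcript that begins inside the gene, because it holds the element for which this gene is known. Which Rarb transcript the UMIs came from was not tested. The 250 bases before the RefSeq start (GRCm38.p6, chr14:16575477-16575726, minus strand) are printed in lower case, and the direct repeat bound by retinoic acid receptors, which lies 53 to 37 bases before the start, in capitals.
Rarb: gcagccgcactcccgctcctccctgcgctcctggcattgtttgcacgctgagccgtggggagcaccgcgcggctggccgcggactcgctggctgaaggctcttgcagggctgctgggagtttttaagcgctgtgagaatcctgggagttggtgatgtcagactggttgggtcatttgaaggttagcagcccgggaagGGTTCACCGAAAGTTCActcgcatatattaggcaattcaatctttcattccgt
The repeat was searched on both strands as 2 half-sites with 5 bases between them (each half-site AGGTCA or GGGTCA, or either of these with GTTCA in place of GGTCA), over 250 bases before to 50 after each start. Of 32851 such promoters, 32 (0.0974%) held it, and those of Lef1, Cracr2a and Npsr1 did not.

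Clustering of all nuclei without the 8 genes of the rule did not give the selected nuclei a cluster of their own. Of the 305, 109 (35.7%) fell in a cluster led by Lypd6, Lypd6b, Fn1 and Tcf7l2, and 109 (35.7%) in a cluster led by Fam19a4, Gal, Rorb and Meox2. A cluster led by Hdc, which makes histamine, held 15, all from chow or DIO, and 72 were spread over 22 other clusters. The Lypd6 cluster held 691 GABAergic nuclei and the Rorb cluster 846, so that most GABAergic nuclei of either cluster did not meet the rule. Over all GABAergic nuclei of a sample, Lef1 reached 155 to 227 CPM in the Lypd6 cluster and 119 to 222 in the Rorb cluster, against 4.28 to 14.4 outside these and the Hdc cluster. Lef1 is a gene of the rule and the 2 clusters were taken for their selected nuclei, so a high level there follows in part from that choice. In the 15 selected nuclei of the Hdc cluster, all with a UMI of Lef1, it was at 264 CPM. That value covers selected nuclei only and is not comparable with those over all GABAergic nuclei. Both main clusters were found in each pool, with 46, 44 and 19 selected nuclei of chow, DIO and OB in the Lypd6 cluster and 44, 35 and 30 in the Rorb cluster. All this is for a clustering resolution of 1.0. At 0.5, 113 selected nuclei fell in a cluster led by Emx2os and Dkk2, 101 in one led by Pth2r and Lmo7, and 31 in one led by Hdc. At 2.0, clusters led by Lypd6, Fam19a4 and Hdc held 109, 102 and 15.

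The share of nuclei in these 2 clusters was larger with more rule genes detected. The clusters were taken as the 2 with the most selected nuclei, so the shares at 3 and 4 genes follow in part from that choice. The share was 5.58% of GABAergic nuclei with 0 of the 5 genes, 15.9% with 1, 44.6% with 2, 69.1% with 3 and 81.8% with 4. The 72 nuclei in other clusters had a median of 10350.5 UMIs, and 21 of them (29.2%) carried both hashtags. In the Lypd6 cluster 9 of 109 did, and in the Rorb cluster 3 of 109. Slc17a6 had a UMI in 25 of the 72 (34.7%), against 4.59% of selected nuclei in the Lypd6 cluster and 5.5% in the Rorb cluster. How far nuclei captured together account for the 72 was not tested.

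The 5 genes were divided unequally between the clusters. Pooled over the study, Npsr1 stood at 927 CPM (exact 95% counting interval 863 to 994) in the Lypd6 cluster and 575 (516 to 639) in the Rorb cluster. Rarb was at 110 CPM in the Lypd6 cluster and 369 in the Rorb cluster, and Cracr2a at 97.8 and 205. Galr1 was highest in the 15 nuclei of the Hdc cluster, at 92.4 CPM, where 14 nuclei had a UMI of it and 4 had one of Npsr1. Of the 32 nuclei with exactly Lef1, Npsr1 and Galr1, 29 lay in the Lypd6 cluster, while 43 of the 69 with exactly Lef1, Cracr2a and Rarb lay in the Rorb cluster. These are descriptions of groups drawn from the same counts, without a test.

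Several genes stood at different levels in the 2 clusters, among them Tcf7l2, Pcsk5, Rorb and Meox2, which lead a cluster and so differ by construction. Sulf1, another leading gene of the Lypd6 cluster, was at 327 CPM there and 302 in the Rorb cluster. In the Lypd6 cluster, selected nuclei of the chow, DIO and OB pools had 156, 209 and 153 CPM of Tcf7l2, a partner of β-catenin like Lef1, and in the Rorb cluster 26.6, 31.2 and 19.0. Pcsk5, a protease that cuts precursor proteins, stood at 384, 570 and 482 CPM in the Lypd6 cluster and 49.9, 57.2 and 9.48 in the Rorb cluster. Nxph1, a secreted ligand of α-neurexins, was at 1874 CPM over the Lypd6 cluster and 747 over the Rorb cluster. The reverse held for Rorb, an orphan nuclear receptor, with 731, 973 and 872 CPM in the Rorb cluster and 153, 169 and 383 in the Lypd6 cluster. Foxp2, a forkhead factor, reached 795 CPM over the Rorb cluster and 188 over the Lypd6 cluster. Unc13c, which primes synaptic vesicles for release, had the widest gap between the 2 clusters among the 12 genes plotted, with 1306, 2647 and 2531 CPM in the Rorb cluster and 113, 180 and 274 in the Lypd6 cluster.

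**Figure D2:**
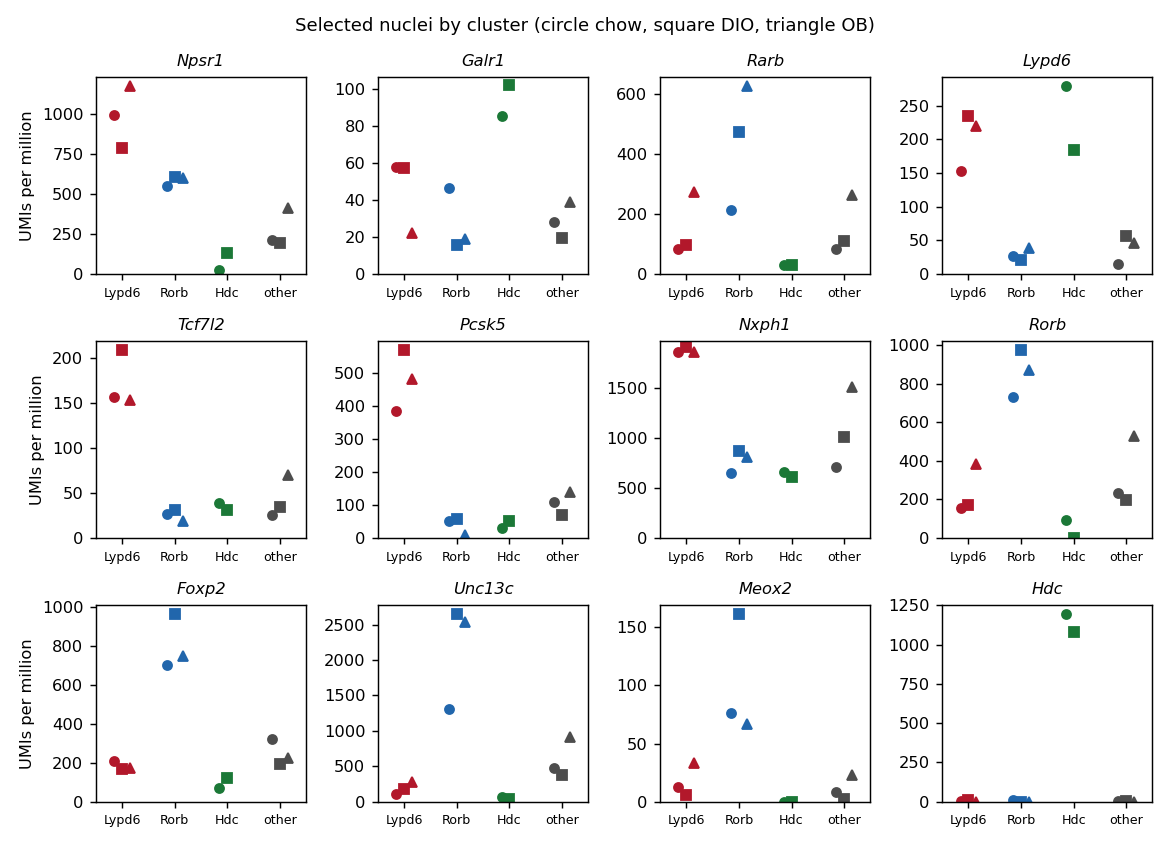
Levels of 12 genes in the selected nuclei of each cluster, in CPM, with 1 point per pool (the Hdc cluster has none from OB). Tcf7l2 and Pcsk5 are high in the Lypd6 cluster, Rorb, Foxp2, Unc13c and Meox2 in the Rorb cluster, and Hdc in the Hdc cluster alone.

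Sums of the selected nuclei were then compared with sums of the other GABAergic nuclei in the same 6 samples, over genes the rule did not use. Of 10572 genes tested, 273 (2.58%) were higher in the selected nuclei and 255 (2.41%) lower at an adjusted p of at most 0.05 (edgeR's quasi-likelihood test with Benjamini-Hochberg adjustment). At least 2-fold higher were 65 of them, and at least 2-fold lower 72. Of those called, 82 of the higher and 111 of the lower genes had ranges that did not overlap between the sets. How many of all 10572 genes did so was not counted. Range limits can rest on few UMIs, as with 3 of Tcf7l2 in OB vehicle nuclei of the selection. Leaving out the DIO pool cut the counts to 158 and 143, and DESeq2 called 164 and 130. With at least 4 of the 5 genes, 58 were higher and 159 lower. After thinning each nucleus to 2000 UMIs, 13 were higher and 212 lower, with 98 of the 528 calls (18.6%) shared. Only 5261 genes could be tested after thinning, so a call can also be missing because its gene was not tested. Because the set mixes nuclei of several clusters, a difference can come from some of them only, and cluster levels are given for some of the genes. Samples are pools of nuclei and each is a block in the fit, so p-values rest on how the difference between the sets varied over the 6 samples. The 2 samples of a pool share 1 library, so the 6 are not independent units. With 1 sum per pool and set, whatever the hashtag, 643 of 14454 genes were called, and 453 of them were among the 528.

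Among called genes with at least 50 CPM in the higher set and 1 direction in all 6 samples, Unc13c had the highest fold change. It spanned 425 to 1732 CPM in the selected nuclei (median 705) and 163 to 217 in the others (median 188), a log2 fold change of 2.05 ± 0.12 (SE, edgeR adjusted p = 4.64e-24, higher in 6 of 6 samples). Foxp2 spanned 281 to 476 CPM against 110 to 133, a log2 fold change of 1.66 ± 0.09 (SE, edgeR adjusted p = 1.11e-25). Neither gene overlapped between the sets, and both were highest in selected nuclei of the Rorb cluster.

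Genes that stood high in the Lypd6 cluster were higher as well. Tcf7l2 spanned 61.9 to 117 CPM in the selected nuclei and 17.9 to 44.1 in the others, a log2 fold change of 1.93 ± 0.16 (SE, edgeR adjusted p = 2.07e-15). Lypd6, which encodes a membrane-anchored protein of the Ly6 family, spanned 80.2 to 165 against 34.7 to 58.0, with a log2 fold change of 1.47 ± 0.14 (SE, edgeR adjusted p = 4.65e-14). Selected nuclei had 194 CPM of Lypd6 in the Lypd6 cluster and 238 in the Hdc cluster. In nuclei thinned to equal depth, where 42 met the rule, the log2 fold change of Lypd6 was -0.01 and it was not called. That fit used only those with a treatment call, in sums of 6000 to 16000 UMIs. Sums of that size hold very few UMIs of a gene at the level of Lypd6, so this value cannot tell whether depth matters. Pcsk5 and Nxph1 had log2 fold changes of 1.41 and 1.34 and did not overlap between the sets.

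The rest of the 20 highest genes under these limits are given next. Sulf1, which trims heparan sulphate, spanned 213 to 397 CPM in the selected nuclei and 78.4 to 143 in the others, a log2 fold change of 1.58 ± 0.10 (SE, edgeR adjusted p = 9.23e-22). Gpc4, a heparan sulphate proteoglycan of the cell surface, had a log2 fold change of 1.11, Sema3a, a secreted guidance cue, 1.33, and Matn2, a matrix protein, 1.22. St8sia4, which adds polysialic acid to cell adhesion molecules, stood at 1.39, Cachd1, an accessory subunit of calcium channels, at 1.37 and Megf11 at 1.29. The others were Hcrtr2, described below, Skap1 (1.69), Kif6 (1.65), Prex2 (1.27), Fstl4 (1.17), the calcium sensor Ncald (1.16) and Ankfn1 (1.10), all log2 fold changes higher in 6 of 6 samples. Sema3a, Kif6 and Prex2 were the 3 of the 20 whose ranges overlapped between the sets.

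The lowest genes included several transcription factors. Meis2, a homeodomain factor of many forebrain GABAergic lineages, reached 0 to 25.9 CPM in the selected nuclei (median 1.94) and 64.4 to 137 in the others (median 88.9), a log2 fold change of -3.54 ± 0.28 (SE, edgeR adjusted p = 4.69e-17). Its 16 UMIs were few, and in the Lypd6 and Rorb clusters its levels were 2.39 and 0 CPM. Esr1, the estrogen receptor α, reached 0 to 41.2 CPM against 50.9 to 66.2, with a log2 fold change of -2.25 ± 0.27 (SE, edgeR adjusted p = 1.2e-09). Nfia and Nfib, nuclear factor I genes, had log2 fold changes of -1.72 and -1.63, and St18 had -1.85. St18 is also 1 of 7 oligodendrocyte markers, whose summed level was 49.4 to 107 CPM in the selected nuclei and 98.7 to 245 in the others. Whether St18 follows RNA from such cells was not tested. Gfra1, a receptor of glial cell line-derived neurotrophic factor, stood at -2.54, Kcnh8, a potassium channel, at -1.58 and Cadps2, which primes dense-core vesicles, at -1.39. Pomc, the precursor of melanocortins, had a log2 fold change of -1.66, with 5.82 to 33.4 CPM in the selected nuclei against 17.2 to 339, where the highest value is that of OB vehicle nuclei.

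**Figure D3:**
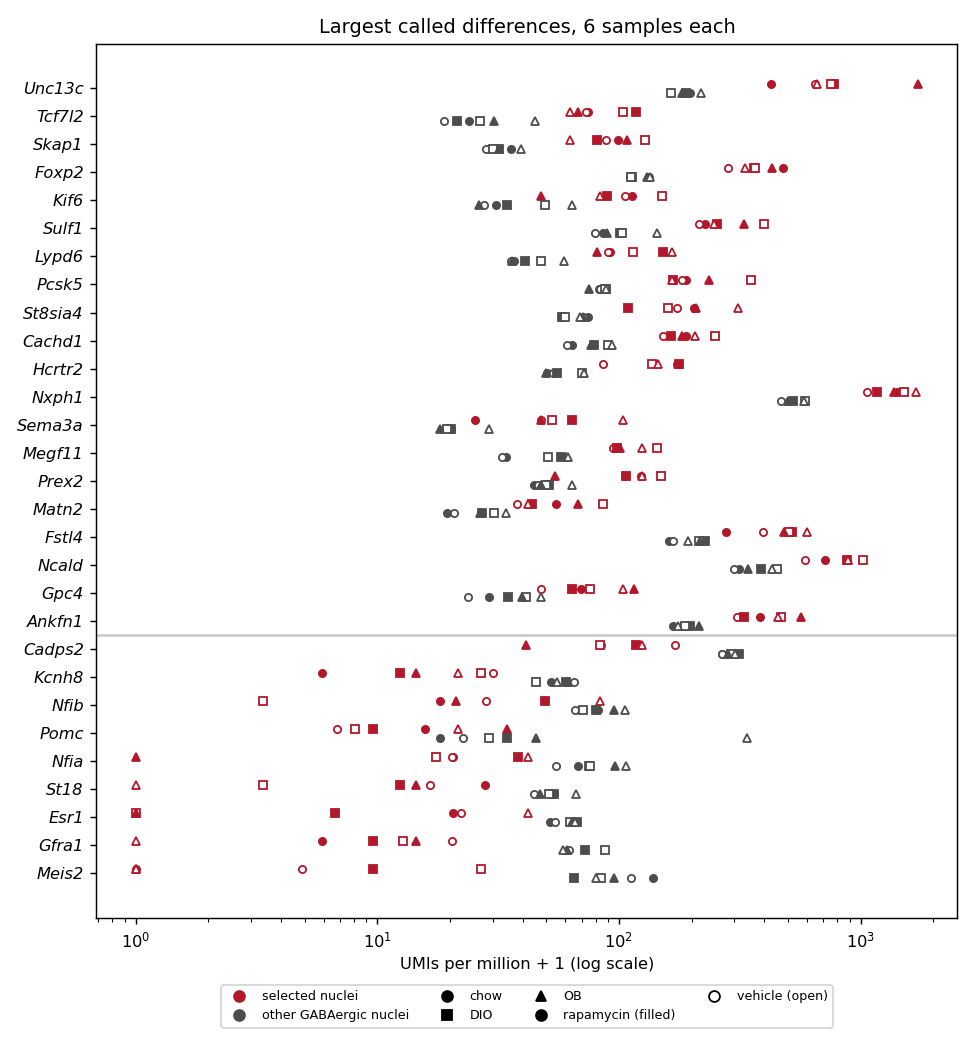
Called genes with the highest and lowest log2 fold changes among those with at least 50 CPM in the higher set, in CPM with 1 added, on a log axis, with 1 point per pool and treatment. Selected nuclei (red) lie right of other GABAergic nuclei (grey) for Unc13c down to Ankfn1 and left of them for Cadps2 down to Meis2, with overlap for Kif6, Sema3a, Prex2, Pomc and Nfib.

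Among lineage transcription factors, lower calls outnumbered higher ones. Of 110 listed genes 59 were tested, of which 9 were higher (15.3%, against 2.58% of all genes tested) and 21 lower (35.6%, against 2.41%), and the median log2 fold change was -0.39 against -0.01 over all genes tested. Higher were Foxp2, Rorb (log2 fold change 0.91), Dlx5 (1.08), Npas3 (0.61), Isl1 (0.48), Mef2c (0.45), Klf7 (0.44), Zfhx4 (0.42) and Tox2 (0.37). By sample, Isl1 was higher in 4 of 6, and Dlx5, Klf7 and Tox2 in 5 of 6. Besides those named above, the lower ones included Zeb2 (-2.73), Nfix (-2.26), Bcl11b (-2.04), Ebf1 (-1.60), Lhx1 (-1.59), Satb1 (-1.47), Six3 (-1.45), Sim1 (-1.14), Sox6 (-1.03) and Prox1 (-0.74). Some of these rest on few UMIs over the 6 sums of selected nuclei, with 9 of Zeb2, 4 of Nfix, and 10 each of Bcl11b and Lhx1. The summed level of 6 suprachiasmatic markers, among them Rorb, was 288 to 682 CPM in the selected nuclei and 175 to 394 CPM in the others. Rorb alone spanned 280 to 662 CPM in the selected nuclei and so made up nearly all of that sum, Vip was at 0 in all 6 sums, and Lhx1 was lower.

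Of the Wnt pathway, to which Lef1 belongs, 34 of 82 listed genes were tested, and 6 were higher (17.6%, against 2.58% of all genes tested) and 1 lower (2.94%, close to the 2.41% of all genes), at a median log2 fold change of 0.10. Besides Tcf7l2, the higher genes were Axin2, a feedback target of β-catenin, at 24.4 to 103 CPM against 14.4 to 23.2 (log2 fold change 1.12 ± 0.22 SE, edgeR adjusted p = 0.000126), and Rspo2, a secreted enhancer of Wnt signalling, at 19.5 to 44.7 against 5.32 to 9.39 (2.13 ± 0.26 SE, edgeR adjusted p = 8.29e-10). Neither overlapped between the sets, though OB vehicle nuclei of the selection had only 5 UMIs of Axin2 and 2 of Rspo2. Znrf3, which removes Wnt receptors, stood at 0.64, Wif1, a secreted inhibitor that binds Wnt ligands, at 1.09 and Kremen1, a co-receptor of the Dickkopf inhibitors, at 1.25, and Ror1, a receptor of Wnt5a, at -2.12. In selected nuclei of the Hdc cluster Wif1 reached 216 CPM, against 8.35 in the Lypd6 cluster. Rspo2 stood at 10.7 CPM in selected nuclei of the Lypd6 cluster, 71.8 in the Rorb cluster and 96.8 in the Hdc cluster.

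Of 26 genes of the retinoic acid list, 12 were tested, with 1 higher and 1 lower (8.33% each, against 2.58% and 2.41% of all genes tested). Rxrg, a partner receptor of Rarb, was higher, at 17.1 to 53.5 CPM against 11.2 to 15.2 (log2 fold change 1.33 ± 0.25 SE, edgeR adjusted p = 6.66e-05), and Nrip1, a co-repressor of nuclear receptors, was lower (-0.64). Among 19 tested genes of stored and store-operated calcium, the group of Cracr2a, 1 was higher (5.26%) and 4 were lower (21.1%). Itpr1, Atp2b1, Trpc5 and Trpc6 were the lower ones, with log2 fold changes of -0.46, -0.38, -0.39 and -0.82.

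Ligands and receptors of peptides moved in both directions. Of 13 tested neuropeptide genes, 1 was higher (7.69%, against 2.58% of all genes tested) and 3 were lower (23.1%, against 2.41%). Tac1, which encodes substance P and neurokinin A, was the higher one, at 32.9 to 103 CPM against 7.61 to 15.8 (log2 fold change 2.02 ± 0.23 SE, edgeR adjusted p = 1.54e-10). Its 103 CPM came from 5 UMIs in OB vehicle nuclei. Pomc, Cartpt and Pmch were the lower ones. Nps, the ligand of Npsr1, had 0 UMIs in the selected nuclei, and Gal, the ligand of Galr1, had 23 UMIs and was not tested. Of 26 tested peptide receptors, 3 were higher (11.5%) and 5 lower (19.2%). Hcrtr2, the orexin receptor 2, spanned 85.3 to 177 CPM against 49.0 to 71.0 (log2 fold change 1.37 ± 0.13 SE, edgeR adjusted p = 1.72e-13), with 651 CPM in the Hdc cluster, 137 in the Rorb cluster and 71.6 in the Lypd6 cluster. Oprk1, the κ-opioid receptor, and Ntsr1, a neurotensin receptor, had log2 fold changes of 0.86 and 1.10. The lower receptors were Tacr1 (-1.36), Npy5r (-1.13), Lepr (-1.05), Prlr (-0.63) and Oprm1 (-0.42). Lepr, the leptin receptor, had 30 UMIs in all, at a median of 4.70 CPM in the selected nuclei and 34.6 in the others, and 26 of the 30 came from chow. In chow rapamycin and vehicle nuclei it had 26.9 and 29.1 CPM against 28.9 and 25.5 in the others. Its lower level was in DIO and OB, at 0 to 9.41 CPM against 33.4 to 41.7. The 0 of OB vehicle nuclei cannot show a lower level, since 3 UMIs in that sum amount to 61.9 CPM. Selected OB nuclei without a treatment call held 1 UMI of Lepr in the Lypd6 cluster and 1 in other clusters. Each group is 1 pool, so a difference between the groups was not tested.

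Transmitter receptors and channels held calls in both directions. Over all genes tested, 2.58% were higher and 2.41% lower. Of 24 tested GABA and glycine genes, 4 were higher (16.7%), among them Gabrb2 and Gabrg3, and the glycine receptor Glra2 was lower (4.17%). Gabrg3, a GABA-A receptor subunit, spanned 1707 to 2289 CPM against 1152 to 1363 (log2 fold change 0.64 ± 0.08 SE, edgeR adjusted p = 5.75e-10). Of 22 glutamate receptors, Gria1, Grik4 and Grid1 were higher (13.6%) and Gria3, Grik2 and Grm5 lower (13.6%). Grm5 stood at 582 to 889 CPM against 1280 to 1417 (log2 fold change -0.74 ± 0.08 SE, edgeR adjusted p = 8.19e-11). Of 17 monoamine, acetylcholine and cannabinoid receptors, 11.8% were higher and 17.6% lower. Htr2a (1.42) and Htr4 (0.68) were higher and Chrna7 (log2 fold change -0.997), Chrm2 (-0.46) and Htr2c (-0.44) lower. Of 41 potassium channels, Kcnh5 and Kcnq5 were higher (4.88%) and 7 lower (17.1%).

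The mTORC1 and housekeeping lists were read against the same shares of all genes. Of 34 tested genes of mTORC1 and its regulators, Deptor, which binds and inhibits mTOR, was the 1 called (2.94%, close to the 2.41% of all genes that were lower), at 9.77 to 40 CPM against 29.7 to 45.5 (log2 fold change -0.85 ± 0.23 SE, edgeR adjusted p = 0.0135). Mtor itself had 48.8 to 82.5 CPM in the selected nuclei and 58.5 to 73.4 in the others. None of 75 ribosomal protein genes, 51 genes of oxidative phosphorylation, 26 of lipid synthesis, 22 chaperones or 3 immediate-early genes was called. Fos had 14 UMIs in the selected nuclei and was not tested.

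Rapamycin was compared with vehicle in the selected nuclei across the 3 pools. Of 6351 genes tested, 1 (0.0157%) passed at an adjusted p of at most 0.05, and 239 had an unadjusted p under 0.05 (edgeR's quasi-likelihood test). DESeq2 called none, with 17 under an unadjusted 0.05. The pools stand in for replicates here, and a change in 1 of them alone would not be found this way.

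The gene that passed was Epha3, a receptor of ephrins that guides axons. Epha3 had 85.5, 120 and 33.4 CPM in rapamycin nuclei of chow, DIO and OB, against 188, 190 and 495 in vehicle nuclei. It was lower with rapamycin in all 3 pools, and the ranges of the treatments did not overlap (log2 fold change -1.30 ± 0.23 SE, edgeR adjusted p = 9.04e-05). The OB vehicle level came from 24 UMIs in 10 nuclei, of which 22 were in 1 nucleus, and without that nucleus it would be 47.7 CPM. Without the OB pool, the log2 fold change was -0.90 with an edgeR adjusted p of 0.261. Without DIO, the log2 fold change was -1.83 with an edgeR adjusted p of 1, and without chow it was -1.56 with 0.0167. With hashtags called by their ratio, it was -1.17 with an edgeR adjusted p of 0.721.

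Epha3 lay mainly in the Lypd6 cluster. There, 4 of 20 rapamycin nuclei and 11 of 22 vehicle nuclei of chow had a UMI, and 6 of 19 and 8 of 23 of DIO. In the Rorb cluster, no sum had more than 3 UMIs of it. In other GABAergic nuclei, the log2 ratio of rapamycin to vehicle was 0.10 for chow, with a 95% counting interval of -0.02 to 0.23. It was -0.30 for DIO, with an interval of -0.41 to -0.19, and -0.80 for OB, with one of -1.01 to -0.58. The difference between the selected and the other nuclei was not tested.

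Rapamycin and vehicle levels of the rule genes differed in direction from gene to gene. Npsr1 had 540, 499 and 455 CPM in rapamycin nuclei of chow, DIO and OB, against 617, 562 and 907 in vehicle nuclei. Lef1 had 217, 274 and 381 in rapamycin nuclei and 188, 247 and 536 in vehicle nuclei. Rarb had 127, 197 and 421 with rapamycin and 130, 181 and 206 with vehicle. The treatments overlapped for Lef1 and Rarb but not for Npsr1, whose OB vehicle level would be 716 CPM without the nucleus that held most of the Epha3 UMIs. Since the rule requires these genes, their levels in the nuclei it picks were not tested.

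None of the lists held a gene called with rapamycin. For mTORC1 and its regulators, 11 of 21 tested genes had a fitted log2 fold change above 0, and the median was 0.00 against 0.01 over all genes tested. Mtor had 48.8, 62.8 and 66.9 CPM in rapamycin nuclei and 50.4, 65.8 and 82.5 in vehicle nuclei of chow, DIO and OB. For ribosomal proteins, 20 of 28 were above 0 at a median of 0.13, and for chaperones 14 of 17 at a median of 0.17, while 3239 of all 6351 genes were above 0. Within pools, 4 of 14 mTORC1 genes with enough UMIs were above 0 in chow (median -0.20) and 4 of 11 in DIO (median -0.07). Rps6, whose protein is phosphorylated downstream of mTORC1, had 26 UMIs over the 6 sums, too few for a comparison within a pool.

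**Figure D4:**
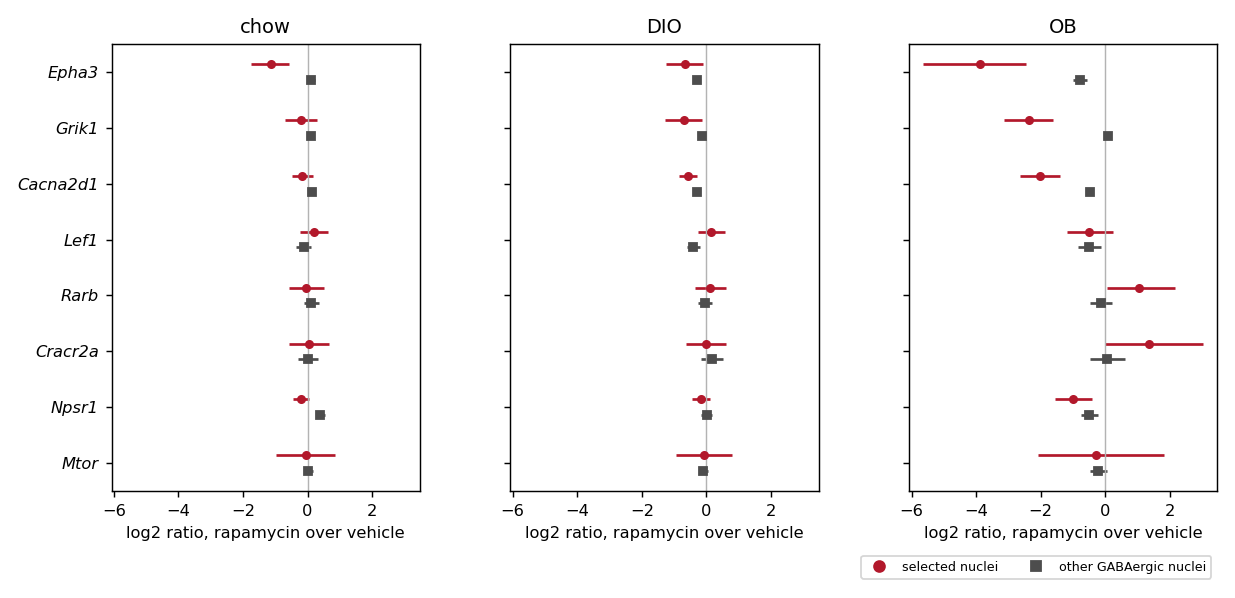
Log2 ratio of CPM, rapamycin over vehicle, in each pool for 8 genes, with exact 95% intervals for counting error. In the selected nuclei (red) Epha3 lies below 0 in all 3 pools, while Mtor spans 0 in each; intervals are widest in OB, where the vehicle sum holds 10 nuclei.

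Within a pool there are no replicates, so ratios are given with counting intervals alone. Counting only genes with 50 or more UMIs over a pair of sums, 51 of 3710 in chow (1.37%), 50 of 3113 in DIO (1.61%) and 41 of 616 in OB (6.66%) differed at least 2-fold between rapamycin and vehicle. In chow, the 5 highest log2 ratios were those of Hdc (1.60), Sh3gl3 (1.54), Grb14 (1.36), Sash1 (1.33) and Slc16a10 (1.31), and the 5 lowest those of Col11a1 (-1.73), Zc3h12c (-1.37), Cpne8 (-1.35), the glucocorticoid receptor Nr3c1 (-1.35) and Slc25a4 (-1.32). Hdc and Slc16a10 lead the Hdc cluster, which gave 8 of the 127 selected chow nuclei.

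In DIO, the 5 highest were Fnip2 (1.41), which acts on the folliculin complex that regulates mTORC1, Timp4 (1.37), Itgbl1 (1.35), Capn15 and Mphosph8 (1.28 each), and the 5 lowest Htr1f (-1.98), the semaphorin receptor Nrp1 (-1.59), Dhx32 (-1.34), Map3k5 (-1.34) and Egflam (-1.23). Fnip2 had 99.9 CPM in rapamycin nuclei against 37.6 in vehicle nuclei of DIO, while in chow it had 44.0 against 56.2. Nrp1 had 65.6 against 198 in DIO, and in chow 190 against 159. No gene of either list was called across the pools.

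In OB, the 5 highest were Fhod3 (2.38), Tox (1.86), Cntn4 (1.76), Fam19a1 and Cpne4 (1.55 each), and the 5 lowest Grik1 (-2.37), Chrm3 (-2.03), Cacna2d1 (-2.02), Grm8 (-1.92) and Fgf13 (-1.91). Grik1, a kainate receptor subunit, had 167 CPM in rapamycin nuclei against 866 in vehicle nuclei, from 25 and 42 UMIs. The nucleus with 22 UMIs of Epha3 also held 20 of those 42, as well as 35 of 54 UMIs of Cacna2d1 and 25 of 28 of Fgf13 in OB vehicle nuclei. That nucleus held 13.6% of the UMIs of its sum. Without it, rapamycin nuclei at 167 CPM of Grik1 and 274 of Cacna2d1 would stand against vehicle nuclei at 525 CPM of Grik1 and 453 of Cacna2d1. Fgf13 would turn direction, at 154 CPM in rapamycin nuclei against 71.6 in vehicle nuclei.

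Obese and lean mice were compared in vehicle nuclei, where each group is 1 pool, so that pool and group cannot be told apart. Of 3722 genes, 111 (2.98%) differed at least 2-fold between DIO and chow. Highest in DIO were Nceh1 (log2 ratio 1.62), Gpc5 (1.56), Slc16a10 (1.53), Msrb2 (1.47) and Map3k5 (1.43), and lowest Fam19a1 (-1.82), Smim13 (-1.79), Zcchc9 (-1.72), Tmem91 (-1.62) and Cep78 (-1.58). Gpc5, a cell-surface proteoglycan, had 611 CPM in DIO against 207 in chow, with a log2 ratio of 0.42 in other GABAergic nuclei. Fam19a1 had 129 against 458, and the ratio in other GABAergic nuclei was -0.21. For Tmem91, at 65.8 against 202, the other GABAergic nuclei had a ratio of -1.08.

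Between OB and chow, 354 of 2301 genes (15.4%) differed at least 2-fold, with 10 OB nuclei behind the values. Highest in OB were Ralyl (log2 ratio 2.94), Hdac9 (2.38), Il1rapl2 (2.35), Grik1 (2.30) and Zfhx3 (2.01). Other GABAergic nuclei had ratios of 2.73 for Ralyl, 2.70 for Hdac9 and 1.93 for Zfhx3, but 0.29 for Il1rapl2. The OB matrix was also made with a later version of Cell Ranger than the chow matrix. The 5 lowest genes, Brinp2, Inpp5f, Psmd7, Zscan26 and Fam179b, had 0 UMIs in the OB vehicle sum, where 3 UMIs amount to 61.9 CPM, and 98.9 to 165 CPM in chow. Npsr1 had 907 CPM in OB vehicle nuclei, 562 in DIO and 617 in chow.

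The selected nuclei made up 2.57% of rapamycin and 2.92% of vehicle GABAergic nuclei of the chow pool. In the DIO pool they made up 2.12% of rapamycin and 2.68% of vehicle nuclei, and in the OB pool 1.87% of rapamycin and 1.95% of vehicle nuclei. All 3 pools had the lower share with rapamycin, but the exact 95% binomial intervals of the treatments overlapped in each, for instance 1.58% to 2.79% for rapamycin and 1.99% to 3.53% for vehicle nuclei of DIO. With at least 4 of the 5 genes the direction turned in chow (0.462% of rapamycin and 0.438% of vehicle nuclei) and OB (0.396% and 0.391%). An exact sign-flip test over 3 pools cannot go below p = 0.25, so none was run. After thinning each nucleus to 2000 UMIs, which left out 314 chow, 425 DIO and 3731 OB nuclei below that depth, chow rapamycin nuclei stood at 0.277% and chow vehicle nuclei at 0.442%, DIO rapamycin at 0.433% and DIO vehicle at 0.792%, OB rapamycin at 0.766% and OB vehicle at 0.993%. The order of the pools turned round with thinning, so no order of the pools is drawn from either.

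**Figure D5:**
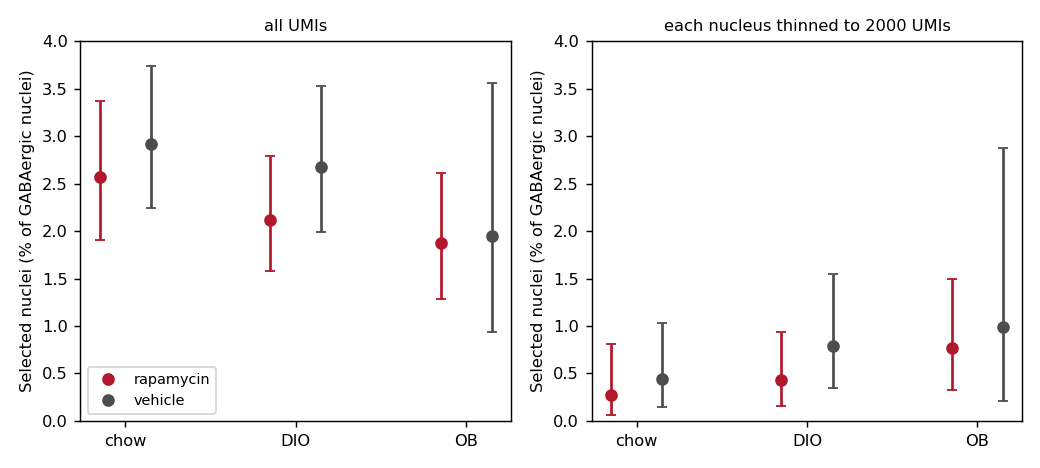
Share of GABAergic nuclei that met the rule, by pool, with rapamycin (red) left of vehicle (grey) and exact 95% binomial intervals, from all UMIs and after thinning to 2000 UMIs. Rapamycin lies below vehicle in all 3 pools with overlapping intervals, and chow is highest with all UMIs but lowest after thinning.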

How the data were processed

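Per the labels and file headers, the authors aligned reads to mm10 with Cell Ranger (6.0.0 for chow and DIO, 7.0.1 for OB), and the deposited matrices hold raw UMI counts of genes and hashtags per called nucleus. Sums used the 27514 genes shared by all pools. Members and gene lists were chosen with earlier results of these data known. Hashtags were called with HTODemux (Seurat 5.3.0, quantile 0.99); nuclei with both tags or none were left out of sums, and other doublets were not called. Clusters came from scanpy 1.11.5 and leidenalg 0.10.2 (3000 variable genes, 40 components, 20 neighbours, resolution 1.0). edgeR 4.0.16 (TMM, filterByExpr, quasi-likelihood test) was fitted with sample or pool as block; scripts were tested on simulated data. DESeq2 1.42.0 was an alternative. Named genes were the 20 highest and 10 lowest called changes of 1 sign in all 6 samples with at least 50 CPM in the higher set, called rapamycin genes, the 5 highest and lowest ratios per pool, and listed genes. Matrices of pools hold 39238102 to 71127440 UMIs. Some genes the rules name are not reported here. Intervals cover counting error of UMIs only.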

Additional observations from a re-analysis of the deposited data

Results flagged for a closer look

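For 10 named genes, the counting intervals of the rapamycin to vehicle ratio lay on opposite sides of 0 in different pools. The difference between pools was not tested, since each ratio compares 1 sum with 1 sum, and most of the genes had been named for a high or low ratio in a pool. Hdc had a log2 ratio of 1.60 in chow and -1.13 in DIO. Slc16a10 had 1.31 in chow and -0.66 in DIO, and its OB value of 2.90 came from 23 and 1 UMIs. Col11a1 had -1.73 in chow and 1.17 in DIO, and Zcchc9 -1.08 and 1.60. For chow, DIO and OB, Fam19a1 stood at -0.73, 1.04 and 1.55, and Gpc5 at 0.63, -1.14 and -1.02. Cpne4 had -1.04 in chow and 1.55 in OB. In DIO and OB, Cntn4 had -0.25 and 1.76, Chrm3 0.47 and -2.03, and Il1rapl2 1.0 and -1.81.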

How the results depend on the processing

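In the comparison with other GABAergic nuclei, the 30 genes with the highest or lowest called fold changes were refitted under other settings. They had been picked among those of at least 50 CPM and 1 direction in 6 samples. Their direction was kept in 351 of 352 refits and their call in 338. Most refits reuse the counts that picked these genes, so this agreement was largely set in advance. The exception was Lypd6 at -0.014 (log2) after thinning, where 23 of the 30 could be tested and 12 were called. Counts of calls were less stable. Higher and lower genes numbered 164 and 130 with DESeq2, 58 and 159 with at least 4 of the 5 genes, 127 and 125 with at least 3 GABAergic UMIs and no Slc17a6, and 13 and 212 after thinning. The genes tested differed as well, with 10572 in the main fit and with DESeq2. The other 3 settings tested 10091, 6388 and 5261, in the same order. Leaving out a pool gave 158 to 290 higher and 143 to 272 lower genes. With rapamycin, 0 genes were called with DESeq2, without the pool block, with at least 4 of the 5 genes, in the Lypd6 cluster or by tag ratio, 2 in the Rorb cluster (Zfp804b and Unc5d, both higher), 4 without the Hdc cluster (chosen after seeing the data) and 0 to 4 when a pool was left out. The OB count of 2-fold genes was 22 by tag ratio. Shares of rapamycin and vehicle nuclei with at least 4 of the 5 genes were 0.462% and 0.438% (chow), 0.34% and 0.548% (DIO), and 0.396% and 0.391% (OB). After thinning, chow rapamycin stood at 0.277% and chow vehicle at 0.442%, DIO rapamycin at 0.433% and DIO vehicle at 0.792%, and OB rapamycin at 0.766%. The cause of these changes was not tested. No paired analysis by replicate number was possible because each group holds 1 sample; pool or sample was already the block. The OB vehicle sum limits every OB value.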
